A study of Homo sapiens with 84 samples.

Results

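Oxidative phosphorylation was followed through 103 protein-coding genes, of 57964 genes and 19827 protein-coding genes in the deposited table, in 2 lung cancer lines exposed to PARP7 inhibitors. Members were taken by symbol alone: the NDUFA, NDUFB, NDUFC, NDUFS and NDUFV genes of complex I, SDHA to SDHD of complex II, the UQCR genes of complex III, the COX4 to COX8 genes of complex IV, the ATP5 genes of complex V, and the 13 genes of these complexes on the mitochondrial genome. The rule uses no measured value, although it was proposed with earlier results of these data known. The 90 nuclear members comprised 39 of complex I, 4 of complex II, 9 of complex III, 17 of complex IV and 21 of complex V. The 13 mitochondrially encoded members comprised 7 of complex I, 1 of complex III, 3 of complex IV and 2 of complex V.

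Complexes I to IV pass electrons from metabolic fuels to oxygen. Complexes I, III and IV pump protons across the inner mitochondrial membrane, and complex V, the ATP synthase, uses the returning protons to make ATP. Their subunits come from both genomes: the mitochondrial genome is transcribed inside the organelle as long precursors that are cut at tRNAs, while most subunits are made in the cytosol and imported. Genes for nuclear subunits carry no shared promoter element, although sites for the factors NRF1, the ETS factor GABP, YY1 and SP1 are known in many of them.

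NCI-H1373 and NCI-H647 are established non-small cell lung cancer lines, each 1 line grown alone in culture. Cells received RBN-2397 at 10, 30 or 300 nM, RBN012337 at 3, 10 or 100 nM, or the vehicle DMSO, for 6 or 24 h; both compounds inhibit PARP7, a mono-ADP-ribosyltransferase encoded by TIPARP. Line, time, compound and dose gave 28 groups of 3 libraries, 84 in all, numbered as replicates 1 to 3. The sample labels spell the first compound RBN012397. They do not say that replicates are separate cultures, so a p-value here is set against the scatter of these libraries alone, some of which can be technical. No group carried a genetic change made for the study, and the control groups received DMSO only.

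The lowest, median and highest library totals were 630654, 2246547 and 5994186 counts in NCI-H1373, and 1769114, 3877265 and 6938453 in NCI-H647. Summed over 6 epithelial markers, the libraries of NCI-H1373 held 2365 to 8688 CPM (counts scaled to a common library total, median 5623) and NCI-H647 libraries 379.8 to 3036 (median 1269). The 5 leukocyte, 5 fibroblast and 4 endothelial markers summed to at most 6.18, 21.4 and 9.52 CPM in any library, with CD3E, a T-cell receptor chain, at 0 in both lines. CYP1B1, a target of the aryl hydrocarbon receptor that PARP7 restrains, or a score of 22 interferon-stimulated genes set 3 libraries apart from their labels. In NCI-H1373 at 6 h, replicate 1 of RBN-2397 300 nM had 11.7 CYP1B1 CPM, against 13.98 to 18.73 in DMSO and 114.7 to 773 in the other treated libraries. In NCI-H647 at 6 h, replicate 2 of RBN-2397 300 nM had 46.3, below the 79.2 to 159.9 of DMSO, and the other treated libraries had 104.2 to 618.7. The treated replicate 1 libraries there were at 104.2 to 165.6, 5 of 6 of them inside the DMSO range. Replicate 2 of RBN012337 100 nM in NCI-H647 at 24 h had an interferon score of 3.71, inside the DMSO range of 3.28 to 4.26. Its CYP1B1 level, 283.6 CPM, was above the 56.8 to 116.2 of DMSO. CYP1B1 thus went with its label and only the interferon score did not. Counts of called members are given below with and without these libraries, which kept their labelled groups.

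Genes were tested with edgeR's quasi-likelihood F test over all genes that passed a filter on low counts, and a gene is called higher or lower where the p-value adjusted by Benjamini-Hochberg over all of them was under 0.05. The filter kept 94 members in NCI-H1373 (81 nuclear, 13 mitochondrially encoded) and 95 in NCI-H647 (82 and 13). The members left out were mostly tissue-specific or testis forms of complex IV subunits and readthrough genes. COX6A2 and COX7A1, muscle forms, had no count in any library, and COX4I2, the form of COX4 known from lung, had 1 count in the 42 NCI-H1373 libraries and 0 in those of NCI-H647. NDUFA4L2, a hypoxia-induced relative of NDUFA4, had 7 and 39 counts, COX7B2 1 and 27, COX8C 7 and 13, NDUFC2-KCTD14 1 and 3, and ATP5MF-PTCD1 2 and 9. COX6B2, the testis form of COX6B, had 158 counts in NCI-H1373, where it was not tested, and 810 in NCI-H647. Genes with near-identical copies or overlapping neighbours are uncertain, because shared reads can be split between them: MT-ATP8 with MT-ATP6, MT-ND4L with MT-ND4, the retrocopies UQCRHL and ATP5MGL, and the readthrough genes.

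The 3' ends of 4 mitochondrial messages are shown because the library type reads message ends and because these 4 carry the widest contrast between the lines, MT-ND2 and MT-ND3 against MT-CO1 and MT-CO2. Each is the last 60 bases of the message in GENCODE 29 on GRCh38, and capitals mark its stop codon, or the base left of it where polyadenylation has to complete the codon. They lie at chrM:5452-5511, chrM:10345-10404, chrM:7386-7445 and chrM:8210-8269, all on the plus strand.
MT-ND2: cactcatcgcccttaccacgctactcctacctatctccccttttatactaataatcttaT
MT-ND3: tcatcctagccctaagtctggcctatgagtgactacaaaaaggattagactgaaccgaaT
MT-CO1: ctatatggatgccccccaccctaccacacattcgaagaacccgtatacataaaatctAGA
MT-CO2: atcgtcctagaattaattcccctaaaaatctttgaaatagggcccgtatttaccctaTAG
MT-ND2 and MT-ND3, the 2 with the incomplete codon, were far higher in NCI-H1373, and MT-CO1 and MT-CO2 were at similar levels in both lines. Of the 13 messages 6 end in an incomplete codon and 7 in a complete one, and the other 4 of the incomplete kind did not share the size of that difference.

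Promoters of 4 nuclear members are shown next, as 200 bases around the RefSeq start on GRCh38.p14. All 4 were called higher in NCI-H1373 at 24 h in the mean of the 6 treatments against DMSO. The share of members called higher there was near that of all genes. None of the 4 calls held without DMSO replicate 1 or without DMSO replicate 2. The printed windows run from 170 bases before the start to 30 after it, or 165 before to 35 after it in UQCRC1. Capitals mark matches to 4 searched motifs on either strand, the palindromic NRF1 site, CCGGAAGT for ETS factors, AAGATGGCG for YY1 and GGGGCGGGG for SP1. NDUFB10 lies at chr16:1959368-1959567 (plus), UQCRC1 at chr3:48609612-48609811 (minus) and UQCRC2 at chr16:21953191-21953390 (plus). The RefSeq table holds 2 starts for ATP5F1A, both shown: start 1 at chr18:46104198-46104397 (minus), at the 5' end of the annotated gene, and start 2 at chr18:46098267-46098466 (minus), inside it.
NDUFB10: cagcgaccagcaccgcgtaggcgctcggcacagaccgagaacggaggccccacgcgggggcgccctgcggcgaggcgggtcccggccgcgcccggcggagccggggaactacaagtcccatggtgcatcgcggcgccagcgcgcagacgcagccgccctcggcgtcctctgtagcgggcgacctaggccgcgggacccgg
UQCRC1: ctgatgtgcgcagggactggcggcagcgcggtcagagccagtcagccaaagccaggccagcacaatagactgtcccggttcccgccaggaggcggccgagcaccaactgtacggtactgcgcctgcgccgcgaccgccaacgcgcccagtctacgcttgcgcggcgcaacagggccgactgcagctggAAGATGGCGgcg
UQCRC2: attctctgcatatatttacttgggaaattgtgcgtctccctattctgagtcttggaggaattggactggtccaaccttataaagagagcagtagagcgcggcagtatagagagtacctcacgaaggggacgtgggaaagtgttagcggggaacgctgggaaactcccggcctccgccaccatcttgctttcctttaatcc
ATP5F1A start 1: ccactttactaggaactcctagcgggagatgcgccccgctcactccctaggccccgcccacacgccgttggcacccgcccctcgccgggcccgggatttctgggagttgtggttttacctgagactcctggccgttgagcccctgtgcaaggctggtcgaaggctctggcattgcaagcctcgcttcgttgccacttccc
ATP5F1A start 2: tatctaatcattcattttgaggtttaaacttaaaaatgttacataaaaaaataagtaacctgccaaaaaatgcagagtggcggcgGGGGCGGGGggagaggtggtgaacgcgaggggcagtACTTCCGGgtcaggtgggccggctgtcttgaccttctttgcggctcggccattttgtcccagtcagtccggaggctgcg
The YY1 letters began at base 24 after the UQCRC1 start, and the SP1 and ETS letters at 85 and 49 bases before start 2 of ATP5F1A (positions -85 and -49), while start 1 of ATP5F1A, NDUFB10 and UQCRC2 held none of the 4 in these windows. The RefSeq table, which holds 300 bases per start (250 before, 50 after), had a promoter for 72 of the 90 nuclear members. Over these whole windows the YY1 letters occurred in 12.5% of members and 2.14% of all 27305 genes, the ETS letters in 16.7% and 4.95%, the NRF1 letters in 5.6% and 1.52%, and the SP1 letters in 15.3% and 18.45%. A match is a description of letters, not a bound site.

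Across all 84 libraries the mitochondrially encoded members separated the lines. The score, the mean log2 CPM over the 13 genes, was 11.26 to 12.01 in NCI-H1373 (median 11.50) and 10.03 to 11.10 in NCI-H647 (median 10.42), so no library of a line overlapped the other line. Means of the 14 groups lay between 11.37 and 11.65 in NCI-H1373 and between 10.28 and 10.64 in NCI-H647. The 13 genes took 5.76% to 8.30% of a library's counts in NCI-H1373 and 2.71% to 4.27% in NCI-H647. The nuclear score, over 82 genes, did not separate the lines: group means were 7.66 to 8.13 in NCI-H1373 and 7.86 to 8.19 in NCI-H647.

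**Figure D1:**
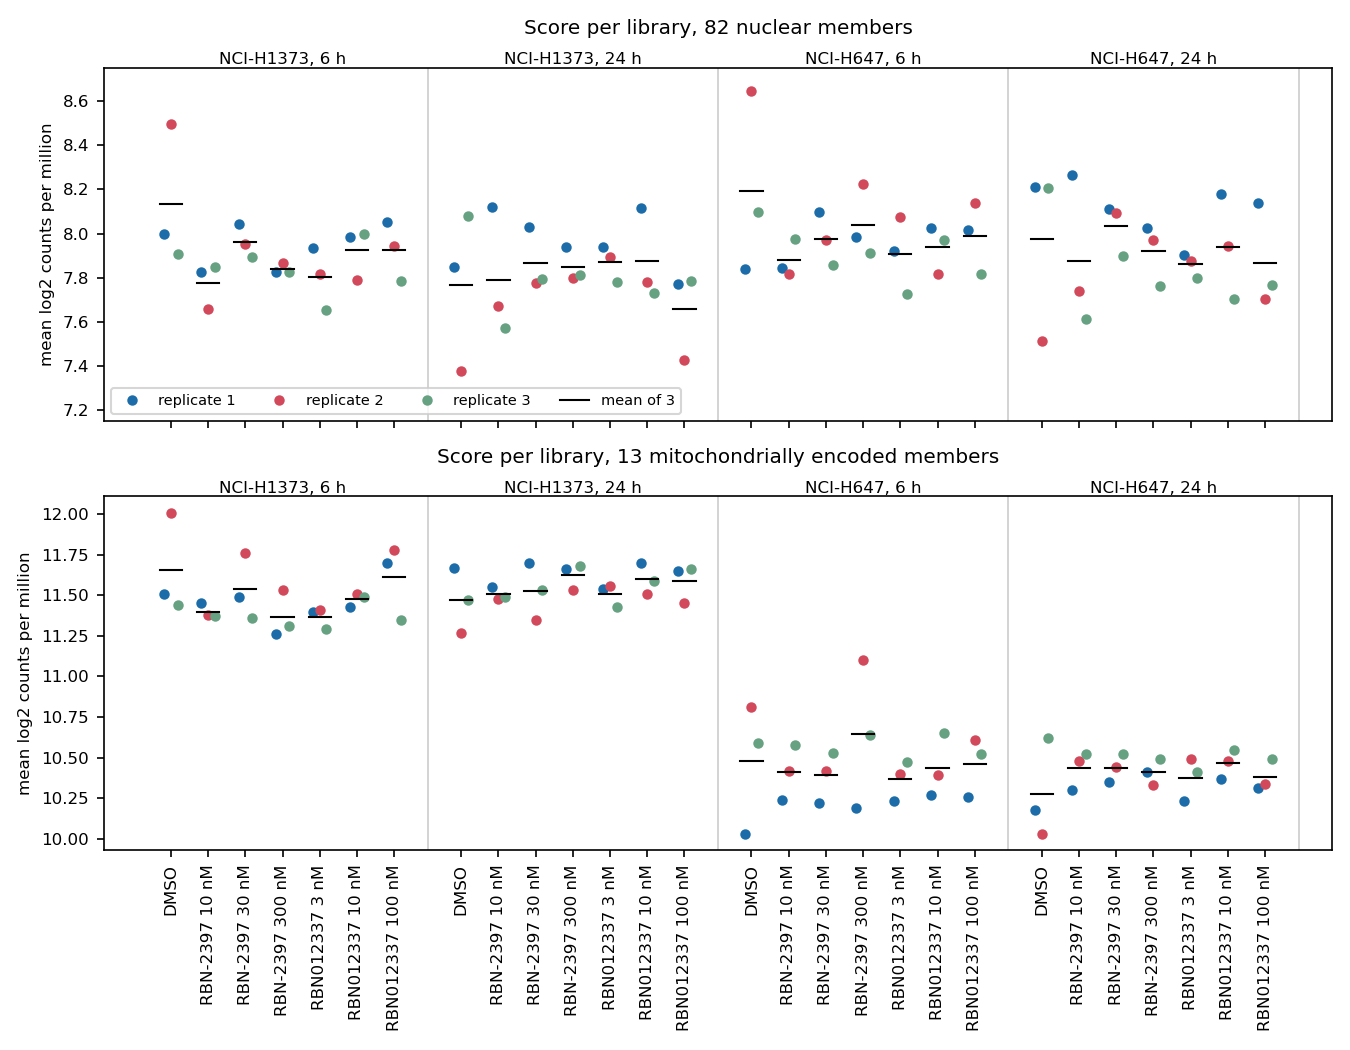
Mean log2 CPM per library over the 82 nuclear members (top) and the 13 mitochondrially encoded members (bottom) in the 28 groups; points are libraries coloured by replicate number and bars are means of 3. The mitochondrial score is 11.26 to 12.01 in NCI-H1373 and 10.03 to 11.10 in NCI-H647, while the nuclear score overlaps between the lines and spreads most among the DMSO libraries.

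The nuclear score spread more among the 3 DMSO libraries of a line and time than the treated mean differed from the DMSO mean. DMSO replicates 1, 2 and 3 scored 7.996, 8.494 and 7.907 in NCI-H1373 at 6 h and 7.85, 7.38 and 8.08 at 24 h. In NCI-H647 they scored 7.84, 8.64 and 8.10 at 6 h and 8.21, 7.51 and 8.20 at 24 h. In both lines replicate 2 was the highest DMSO library at 6 h and the lowest at 24 h. The 18 treated libraries stayed closer together, at 7.65 to 8.05 and 7.43 to 8.12 in NCI-H1373 and at 7.73 to 8.22 and 7.61 to 8.27 in NCI-H647 at 6 and 24 h. All treated libraries are compared with the same 3 DMSO libraries of their line and time, so these libraries enter each of the treatment comparisons that follow.

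Under DMSO, mitochondrially encoded complex I, III and V messages were higher in NCI-H1373 than in NCI-H647, and those of complex IV split. At 6 h 11 of the 13 members were higher and none lower, with a median log2 difference of 1.12, where 15.6% of all tested genes were higher and 17.8% lower and the median of all genes was -0.02. At 24 h 10 of 13 were higher and none lower, with a median of 1.30, where 13.9% of all genes were higher and 15.1% lower. Levels are relative to each library's total and do not give cell numbers. In total RNA of a culture, fewer cells holding a message and less of it per cell cannot be told apart. These are differences between 1 line and another, each with 3 libraries per time.

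MT-ND2, a complex I subunit of the proton-pumping arm, had the widest difference of the 13. Its level was 13803, 17171 and 14099 CPM in NCI-H1373 and 1753, 2114 and 2030 in NCI-H647 at 6 h, in replicate order. At 24 h the values were 14087, 10787 and 12886 against 1543, 1504 and 1593. Every NCI-H1373 library was several-fold above every NCI-H647 library, with log2 differences of 2.93 ± 0.16 (SE) at 6 h and 3.02 ± 0.16 at 24 h (edgeR adjusted p = 4.89e-25 and 2.60e-25). MT-ND3, a small complex I subunit, followed: 2377, 3021 and 1992 CPM against 338.7, 546.5 and 454.6 at 6 h, and 2574, 2022 and 2167 against 424.1, 322.0 and 461.2 at 24 h. The groups did not overlap, and the log2 differences were 2.47 ± 0.17 and 2.49 ± 0.17 (edgeR adjusted p = 5.45e-20 and 5.04e-20).

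The remaining complex I messages, MT-ND1, MT-ND4, MT-ND4L and MT-ND5, differed less, with log2 differences at 6 and 24 h of 1.47 and 1.54, 1.20 and 1.39, 1.07 and 1.05, and 0.72 and 0.63, all called. MT-ND6, the only one of the 13 read from the other strand, was called at 6 h (1.12, edgeR adjusted p = 0.0288) and not at 24 h (0.62, adjusted p = 0.299). MT-CYB, the mitochondrially encoded subunit of complex III, was higher by 0.92 and 1.44, and the ATP synthase subunits MT-ATP8 and MT-ATP6 by 1.57 and 1.73 and by 1.23 and 1.30. Of the 3 catalytic-core subunits of complex IV, MT-CO3 was higher by 0.66 and 0.58. MT-CO1 was at 2527, 5052 and 2910 CPM in NCI-H1373 and at 1606, 4909 and 4002 in NCI-H647 at 6 h, with overlapping groups and a log2 difference of 0.00 ± 0.38. MT-CO2 was at 6656, 11938 and 5103 against 5158, 12477 and 8589 at 6 h, again overlapping, with a log2 difference of -0.15 ± 0.29 (-0.31 ± 0.29 at 24 h). Within each line the 3 DMSO libraries of MT-CO1 and MT-CO2 spread widely.

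**Figure D2:**
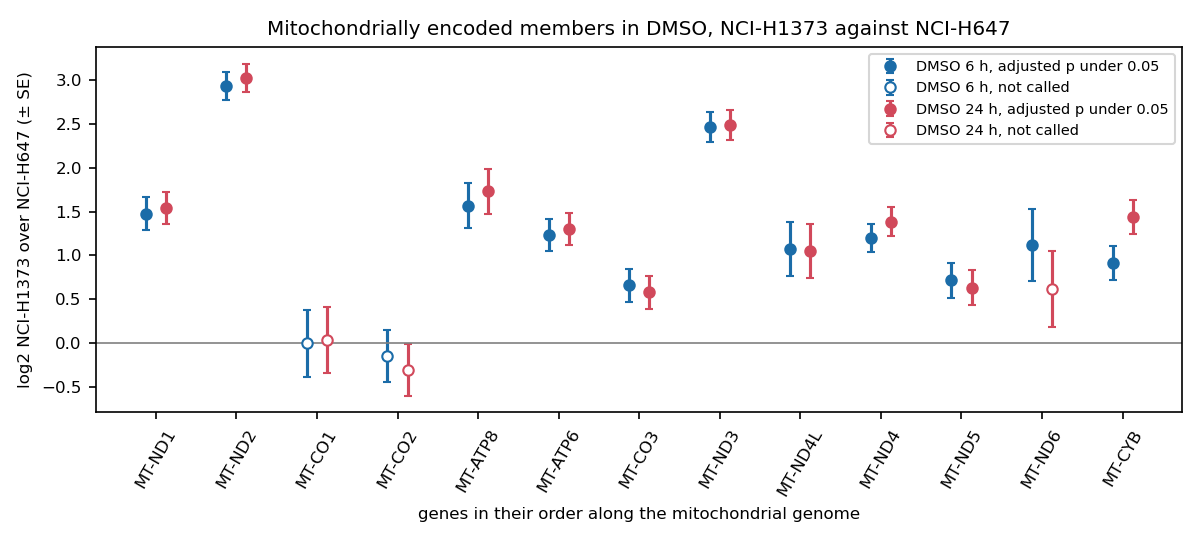
Log2 difference NCI-H1373 over NCI-H647 in DMSO, with its standard error, for the 13 mitochondrially encoded members in their order along the genome, at 6 and 24 h; filled points have an edgeR adjusted p under 0.05. MT-ND2 (2.93 and 3.02) and MT-ND3 (2.47 and 2.49) stand above the others, and MT-CO1 and MT-CO2 lie near 0 or below it.

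The 2 ribosomal RNAs of the mitochondrial genome did not follow the messages. Over all libraries of a line summed, treated ones included, MT-RNR2 was at 30373 CPM in NCI-H1373 and 30510 in NCI-H647, and MT-RNR1 at 3278 and 4192. The values of ribosomal RNAs, tRNAs and nuclear copies in this paragraph are shares of summed raw counts. They are not on the scale of the DMSO levels above. The tRNAs on either side of MT-ND2 were also uneven, MT-TM at 41.9 against 5.98 and MT-TW at 4.29 against 0.839 (chosen after their values were seen). Nuclear copies of mitochondrial genes took reads unequally: MTND1P23, on chromosome 1 at 629062 to 629433, held 2.85 CPM in NCI-H1373 and 435.5 in NCI-H647, and MTND4P12 held 654.9 and 2.06. With all copies added, the log2 ratio of the summed counts went from 1.41 to 1.09 for MT-ND1, from 1.14 to 1.22 for MT-ND4 and from 2.66 to 2.67 for MT-ND2. No count of called members changed by over 1.5 times. Leaving out DMSO replicate 2 of NCI-H1373 or replicate 1 of NCI-H647 left 7 mitochondrially encoded members called at 6 h. Without the 3 libraries that went against their labels, none of them DMSO, 11 and 10 were called again.

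Nuclear members differed between the lines in both directions. At 6 h 12 of 82 were higher and 13 lower in NCI-H1373 (median -0.04), shares near the 15.6% and 17.8% of all genes. At 24 h 6 of 82 were higher and 22 lower (median -0.18, all genes -0.02), the first a smaller share than the 13.9% and the second a larger share than the 15.1% of all genes. By complex, 24 h gave 2 higher and 10 lower of 37 in complex I, 0 and 2 of 4 in complex II, 1 and 2 of 9 in complex III, 3 and 1 of 12 in complex IV, and 0 and 7 of 20 in complex V. Without DMSO replicate 2 of NCI-H1373, 18 rather than 28 nuclear members were called at 24 h. With only the DMSO groups of that time in the model 7 were called at 6 h and 2 at 24 h. Without the 3 libraries that went against their labels 24 and 33 were called, and the 6 h call of COX7B was lost (0.56).

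In complex I, NDUFS4, an accessory subunit needed for a stable complex, was at 209.5, 373.2 and 234.8 CPM in NCI-H1373 and 83.6, 176.8 and 112.0 in NCI-H647 at 6 h. The groups did not overlap, and it was higher by 1.15 (edgeR adjusted p = 5.98e-06), and by 0.92 at 24 h. NDUFB9 was higher by 0.96 and 0.72. NDUFA13, also known as GRIM-19, was at 156.5, 103.6 and 168.3 against 520.3, 299.4 and 569.2 at 24 h and lower, with a log2 difference of -1.70 (edgeR adjusted p = 9.88e-08). NDUFB1 was lower as well, at -1.20 and -1.29.

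In complex II, which links the citric acid cycle to the chain, the iron-sulfur subunit SDHB (-0.66 and -0.99) and the membrane anchor SDHC (-0.87 and -0.79) were lower in NCI-H1373. In complex III the small subunit UQCRB was higher (0.89 at both times), the Rieske protein UQCRFS1 lower (-0.99 and -0.96) and the core subunit UQCRC2 lower at 24 h (-0.73). In complex V, ATP5MC1 and ATP5MC2, which encode the c ring of the rotor, were lower at 24 h (-1.13 and -1.23), as was ATP5F1D of the central stalk (-1.17). ATP5MD was higher at 6 h (0.78) and ATP5MPL lower (-0.92 and -0.79). ATP5IF1, the inhibitor of ATP hydrolysis by the synthase, was lower at 24 h (-0.92, edgeR adjusted p = 3.39e-04) and at -0.47 at 6 h (adjusted p = 0.0699).

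Complex IV held the clearest difference among alternative subunit forms. COX6B1, the widely expressed form of COX6B, was at 586.7, 877.0 and 575.7 CPM in NCI-H1373 and 1229, 2322 and 1453 in NCI-H647 at 6 h. The groups did not overlap, and it was lower at both times, with log2 differences of -1.29 ± 0.20 and -1.44 ± 0.20 (edgeR adjusted p = 2.79e-07 and 2.90e-08). COX6B2 was at 0.823, 1.08 and 1.25 against 4.33, 8.07 and 5.37 at 6 h (log2 difference -2.47, edgeR adjusted p = 7.46e-04). At 24 h NCI-H1373 had 2.40, 1.03 and 0, and the gene was not called (-0.88, adjusted p = 0.290). COX6B2 failed the filter in NCI-H1373 and entered the fit of both lines through its NCI-H647 counts. Its 6 h call, counted among the lower members, is therefore no support for a difference. COX7B was higher at both times (0.62 and 0.76), COX6A1 at 6 h (0.83, adjusted p = 0.00747) and COX6C at 24 h (0.87). COX4I1, COX7A2 and NDUFA4, which is now placed in complex IV, had log2 differences between -0.13 and -0.05, none called.

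**Figure D3:**
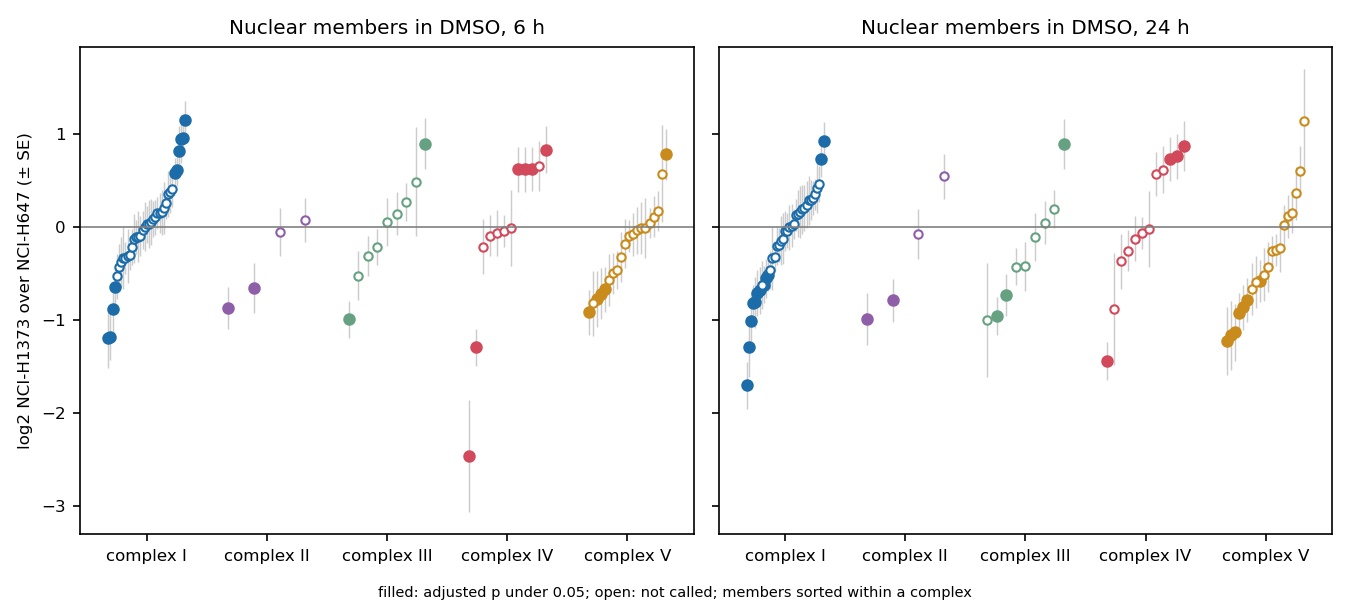
Log2 difference NCI-H1373 over NCI-H647 in DMSO for the tested nuclear members at 6 h (left) and 24 h (right), sorted within each complex, with standard errors; filled points have an edgeR adjusted p under 0.05. Called members lie on both sides of 0 at 6 h (12 higher, 13 lower) and mostly below it at 24 h (6 higher, 22 lower).

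Genes that build and serve the complexes also differed between the lines in DMSO, in both directions. Of 53 assembly factors 11 were higher and 7 lower in NCI-H1373 at 6 h (15.6% and 17.8% of all genes) and 7 and 11 at 24 h (13.9% and 15.1%). At 6 h the copper chaperone COX17 (1.65) and NDUFAF8 (1.46) were above and UQCC1 (-2.13) and SDHAF1 (-2.62) below. Of 33 genes for mitochondrial DNA and RNA upkeep 7 were higher and 3 lower at 6 h and 4 and 3 at 24 h, with TFAM, which packages and starts transcription of the mitochondrial genome, at 1.10 at 6 h (edgeR adjusted p = 6.47e-04) and 1.15 at 24 h. The electron carriers CYC1 and CYCS were at 0.78 and 1.02 at 6 h, and C15orf48, which can replace NDUFA4, at 2.21, all higher. PPARGC1A, a coactivator of mitochondrial genes, was called lower at 6 h (-3.45, edgeR adjusted p = 0.0440). Whether it passed the filter in NCI-H1373 alone is not reported here, so this call is not taken as support for a difference. Ribosomal protein genes, a reference outside mitochondria, had 11 higher and 3 lower of 34 at 6 h and 3 and 6 at 24 h.

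Treatment raised 6 of 81 nuclear members in NCI-H1373 at 24 h, taken as the mean of the 6 treatments against DMSO, and lowered none. Over all genes 12.1% were called in this comparison (6.13% higher, 6.02% lower), so the share of members called higher was near that of all genes and the share called lower was below it. The median member was at -0.02 and the median gene at -0.01. Complexes I, III and V gave 2 each, and complexes II and IV none. No mitochondrially encoded member was called.

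NDUFB10, an accessory subunit of complex I, was at 133.6, 126.2 and 230.8 CPM in DMSO and at 147.9, 290.9 and 337.8 in treated libraries (lowest, median, highest of 18). Replicates 1 and 2 of RBN012337 100 nM fell inside the DMSO range and the other 16 treated libraries lay above it, and it rose by 0.75 ± 0.17 (edgeR adjusted p = 0.00338).

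The messages of UQCRC1 and UQCRC2, which encode the core proteins of complex III, both rose. UQCRC1 was at 96.5, 105.1 and 102.4 in DMSO and 83.96, 140.3 and 166.9 in treated libraries (0.43 ± 0.14, edgeR adjusted p = 0.0352). UQCRC2 was at 38.9, 33.3 and 34.7 in DMSO and 38.2, 50.8 and 76.0 in treated libraries (0.58 ± 0.18, edgeR adjusted p = 0.0328). In UQCRC2 1 treated library fell inside the DMSO range, and in UQCRC1 1 fell inside it and 1 below it, all of them RBN012337 100 nM. In complex V the catalytic-head subunit ATP5F1A was at 208.3, 216.9 and 253.3 in DMSO and 187.0, 318.5 and 355.7 in treated libraries (0.42 ± 0.14, edgeR adjusted p = 0.0388). ATP5F1D, at a low level of 9.07, 10.8 and 5.21 in DMSO and 9.40, 21.9 and 33.9 in treated libraries, rose by 1.22 ± 0.32 (edgeR adjusted p = 0.00995). The overlap came from replicates 1 and 2 of RBN012337 100 nM and, in ATP5F1D, also from replicate 2 of RBN-2397 10 nM.

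**Figure D4:**
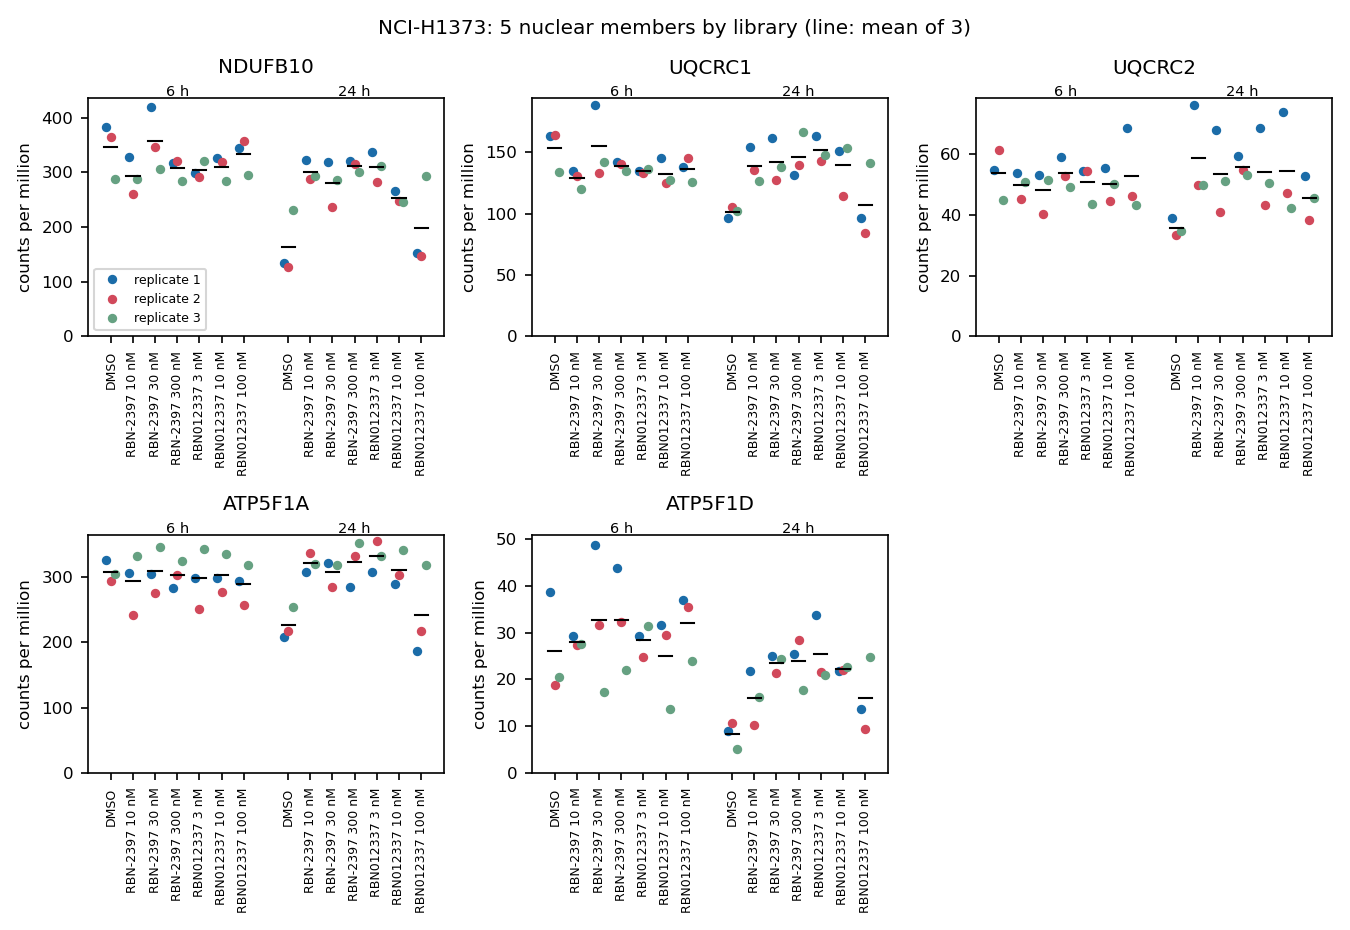
CPM by library of 5 nuclear members called higher in the NCI-H1373 24 h mean response, at 6 h and 24 h in the 7 groups of that line; points are libraries coloured by replicate number and bars are means of 3. The DMSO libraries at 24 h lie below most treated libraries and below the DMSO libraries at 6 h, and 2 or more libraries of RBN012337 100 nM at 24 h lie near DMSO in NDUFB10, UQCRC1 and ATP5F1A.

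The libraries of RBN012337 100 nM at 24 h were near DMSO in several of these genes. NDUFB10 was there at 153.5, 147.9 and 294.1, against 236.3 to 337.8 in the other 15 treated libraries of that time. UQCRC1 was at 96.81, 83.96 and 141.2. Replicates 1 and 2 were low and replicate 3 was not. The interferon-stimulated score of these 3 libraries was 6.15, 5.10 and 7.73, above the 4.07 to 4.62 of DMSO.

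Single doses in NCI-H1373 at 24 h called members at the lowest RBN012337 dose and at every RBN-2397 dose, always higher. Of the 81 nuclear members tested, the share called was below that of all genes called higher at RBN-2397 10 nM. It was near that share at RBN-2397 30 and 300 nM and RBN012337 3 nM. RBN-2397 at 10 nM raised NDUFB10 (0.89, edgeR adjusted p = 0.00806) and UQCRC2 (0.72, adjusted p = 0.0465), with 7.33% of all genes called (4.26% higher). At 30 nM NDUFB10 (0.78, adjusted p = 0.0337) and ATP5F1D (1.38, adjusted p = 0.0401) rose, with 2.16% called (1.68% higher), and at 300 nM 7 nuclear members rose, among them NDUFB10 (0.95, adjusted p = 0.00293), with 11.9% called (6.83% higher). RBN012337 at 3 nM raised 5, NDUFB10 (0.93, adjusted p = 0.00558) and ATP5F1D (1.52, adjusted p = 0.0104) first, with 8.5% called (4.96% higher). NDUFB10 was the member shared by these 4 doses, all measured against the same 3 DMSO libraries. At 10 and 100 nM RBN012337 no member was called by edgeR, where 2.68% and 0.195% of all genes were, 9 and 1 nuclear members had an unadjusted p under 0.05, and DESeq2 called 2 and 0. Over all 12832 genes, 2171 and 729 had an unadjusted edgeR p under 0.05. NDUFB10 was at 265.4, 246.9 and 246.0 with 10 nM RBN012337, above all 3 DMSO libraries. With only the groups compared in the model 0 members were called at each RBN-2397 dose and 1 with 3 nM RBN012337. Without DMSO replicate 1 the counts at RBN-2397 10, 30 and 300 nM and RBN012337 3 nM were 0, 0, 1 and 0, and without DMSO replicate 2 they were 1, 0, 7 and 3. Without treated replicate 1 they were 0, 0, 3 and 0, without treated replicate 2 they were 0, 0, 1 and 2, and without treated replicate 3 they were 1, 0, 4 and 3.

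Several measures moved with these 6 rises, and their part in the result was not tested. Of the ribosomal protein genes 7 of 34 rose in the same comparison, of the interferon-stimulated genes 18 of 22, and of the epithelial markers 5 of 6 (6.13% of all genes). MALAT1, a nuclear-retained RNA, fell by 0.83 on the log2 scale (edgeR adjusted p = 0.0213), from a mean of 20875 to 11884 CPM. The DMSO libraries held 3610536, 1622874 and 630654 counts. Without DMSO replicate 1 no nuclear member was called, although the log2 values stayed positive (NDUFB10 0.58, ATP5F1D 1.18). Without DMSO replicate 2 a set of 9 was called that lacked NDUFB10, UQCRC1, UQCRC2 and ATP5F1A, and without replicate 3 of all treatments 3 were called. With only the 7 groups of that time in the model 2 were called. Without the 3 libraries that went against their labels the same 6 members rose, ATP5F1D by 1.23 and NDUFB10 by 0.75, and ATP5F1D was also called with 10 nM RBN012337 (1.31, edgeR adjusted p = 0.0495).

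Compositional change inside complex IV was not called in NCI-H1373 at 24 h. COX6A1 (-0.45, edgeR adjusted p = 0.114), COX7A2 (-0.34, adjusted p = 0.191), COX4I1 (-0.06) and COX6B1 (-0.05) did not pass, nor did NDUFA4 (-0.56, adjusted p = 0.0554), the complex I subunit NDUFC2 (-0.48, adjusted p = 0.0515) or ATP5IF1 (0.23, adjusted p = 0.433). C15orf48 was at 1.28 (adjusted p = 0.0981). For the mitochondrially encoded members edgeR and DESeq2 both called 0 of 13, 0 had an unadjusted p under 0.05 (3337 of all 12832 genes did), and the median was 0.07. The smallest p belonged to MT-ND4 (0.23 ± 0.12, edgeR adjusted p = 0.203), then MT-ND5 (0.16) and MT-CO3 (0.15).

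Around the complexes, NCI-H1373 at 24 h showed calls in both directions, where 6.13% of all genes were higher and 6.02% lower. Of 53 assembly factors 7 rose, NDUFAF8 (0.80), BCS1L (0.67) and ACAD9 (1.14) among them, and 3 fell, COX17 (-0.79), CMC2 (-0.62) and TMEM70 (-0.54). CYC1, the cytochrome c1 of complex III, rose (0.68, edgeR adjusted p = 0.0489) and CYCS, cytochrome c, fell (-0.51, adjusted p = 0.0432). Of 33 genes for mitochondrial DNA and RNA upkeep TWNK (0.82) and TBRG4 (0.73) rose and POLG (-0.75) fell, while TFAM was at -0.21 and POLRMT at 0.53 (adjusted p = 0.271). Of 19 citric acid cycle genes IDH3A fell (-0.77, adjusted p = 0.00664), and of 11 hypoxia and glycolysis genes VEGFA (2.43), SLC2A1 (1.31) and LDHA (0.82) rose. The falls among assembly factors and the calls among upkeep and citric acid cycle genes were near or below the shares of all genes.

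In NCI-H647 at 24 h the mean of 6 treatments called 3 of 82 nuclear members, where 4.98% of all genes were called (2.26% higher, 2.72% lower), and the median member was at -0.14. SDHA, the flavoprotein of complex II, was at 92.7, 58.3 and 43.0 CPM in DMSO and 55.9, 99.4 and 120.4 in treated libraries (lowest, median, highest of 18), and rose by 0.59 ± 0.18 (edgeR adjusted p = 0.0406). NDUFA12, a complex I subunit, was at 345.9, 275.6 and 507.5 in DMSO and 202.6, 252.6 and 340.3 in treated libraries, and fell by 0.57 ± 0.17 (adjusted p = 0.0383). COX6A1 was at 992.0, 809.3 and 1392 in DMSO and 521.7, 705.2 and 922.7 in treated libraries, and fell by 0.56 ± 0.17 (adjusted p = 0.0406). The groups overlapped in all 3 genes. Without DMSO replicate 3, or without replicate 1 or 3 of all treatments, 0 were called, 1 without DMSO replicate 2 and 6 without DMSO replicate 1. Without the 3 libraries that went against their labels 5 were called, the same 3 with SDHA at 0.64 (edgeR adjusted p = 0.00627), COX6B2 at 0.94 and NDUFA2 at -0.49, and SDHA was then called at 3 single doses, RBN-2397 10 and 300 nM and RBN012337 3 nM.

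No mitochondrially encoded member was called in NCI-H647 at 24 h by edgeR or DESeq2, 1 had an unadjusted p under 0.05 (2965 of all 14789 genes did), and the median was 0.05. That one, MT-ND2, was at 1543, 1504 and 1593 in DMSO and at 1790 to 2089 in the treated libraries, so the groups did not overlap, but its difference of 0.34 ± 0.13 did not pass (edgeR adjusted p = 0.142). It passed without the 3 libraries that went against their labels (0.36 ± 0.11, adjusted p = 0.0313). The only one of them in NCI-H647 at 24 h, a library of RBN012337 100 nM, was set apart by its interferon score alone. COX6B2 was at 0.90 (adjusted p = 0.0828) and NDUFA4 at -0.46 (adjusted p = 0.155). Outside the complexes PNPT1, which degrades mitochondrial RNA, rose by 1.10 (adjusted p = 0.00936), as did PPRC1, a coactivator of the PGC-1 family (1.16, adjusted p = 0.0145), and IDH3A fell (-0.57, adjusted p = 0.0314). PPARGC1A was at 3.20 (adjusted p = 0.0533). No member was called by edgeR at any single dose in NCI-H647 at 24 h, where the share of all genes called was 1.8% for 10 nM, 0.94% for 30 nM and 3.38% for 300 nM RBN-2397, then 0.676% for 3 nM, 0.176% for 10 nM and 0.101% for 100 nM RBN012337. At an unadjusted p under 0.05 these doses held 2 to 13 nuclear and 0 or 1 mitochondrially encoded members, and DESeq2 called 2 members with RBN-2397 300 nM. Over all 14789 genes these doses held 862 to 2716 at that unadjusted p.

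**Figure D5:**
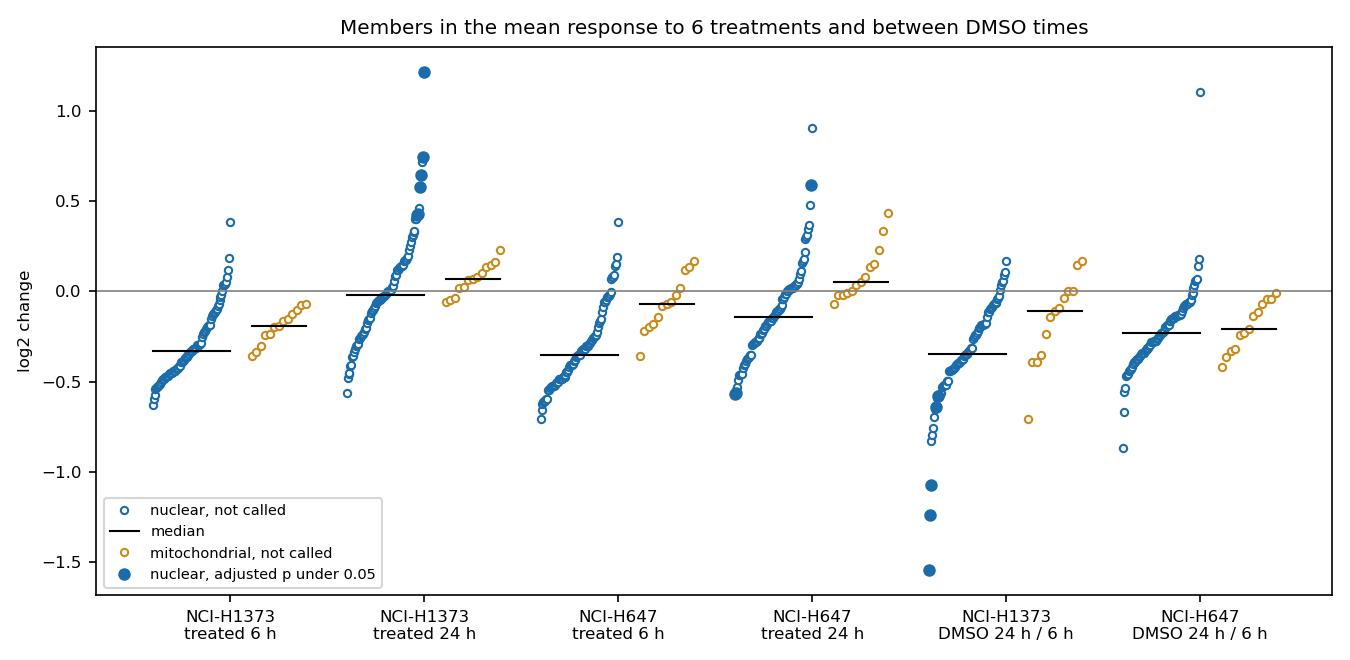
Log2 change of each tested member in the mean response to 6 treatments (4 line and time pairs) and between the DMSO groups of 24 and 6 h (2 lines), nuclear and mitochondrially encoded apart; bars are medians and filled points have an edgeR adjusted p under 0.05. Nuclear medians are -0.33 and -0.35 at 6 h with none called, 6 members rise in NCI-H1373 at 24 h, and 5 are lower in its DMSO at 24 h than at 6 h.

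At 6 h most nuclear members were lower in treated libraries, but none was called by edgeR in either line. Negative log2 changes were seen in 72 of 81 in NCI-H1373 (median -0.33) and 74 of 82 in NCI-H647 (median -0.35), with an unadjusted p under 0.05 in 37 and 41. DESeq2 called 1 and 2. Over all genes 1904 of 12832 and 1302 of 14789 had such an unadjusted edgeR p, with medians of 0.005 and -0.005. Of all genes edgeR called 1.16% and 0.0135%. The mitochondrially encoded members had medians of -0.19 and -0.07, with 1 unadjusted p under 0.05 in each line and 0 called by edgeR or DESeq2.

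NDUFC2, a complex I subunit of the membrane arm, led in both lines. It was at 408.8, 849.1 and 530.7 in DMSO and 294.0, 400.5 and 509.7 in treated libraries of NCI-H1373 (-0.60 ± 0.16, edgeR adjusted p = 0.0583). In NCI-H647 it was at 287.9, 1002 and 466.1 in DMSO and 262.2, 360.0 and 491.8 in treated libraries (-0.70 ± 0.20, adjusted p = 0.230). DMSO replicate 2 was the highest library of its comparison in both lines. COX6C (-0.66, adjusted p = 0.243) and COX7B (-0.61) followed in NCI-H647, NDUFC1 (-0.63, adjusted p = 0.0792) and NDUFA6 (-0.50, adjusted p = 0.0917) in NCI-H1373. MT-ND3 (-0.24, adjusted p = 0.289) had the smallest p of the mitochondrially encoded members in NCI-H1373, and MT-CO2 (-0.36, adjusted p = 0.515) in NCI-H647.

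The shift was widest within replicate 2, although the labels do not pair libraries by number. There the 6 treated libraries lay below the DMSO library of the same number, all 6 of them in each line. The mean difference in nuclear score was -0.66 in NCI-H1373 and -0.64 in NCI-H647. Within replicates 1 and 3 the same differences were -0.05 and -0.07 in NCI-H1373 and 0.14 and -0.22 in NCI-H647, where all 6 lay above DMSO in replicate 1 and all 6 below it in replicate 3. Without DMSO replicate 2 the difference of means went from -0.26 to -0.08 (NCI-H1373) and -0.24 to -0.01 (NCI-H647). The ribosomal protein score within replicate 2 differed by -0.29 and -0.26, and its part in the result was not tested. Without DMSO replicate 1, 6 nuclear members were called in NCI-H1373 and 27 in NCI-H647, and without DMSO replicate 3, 3 in NCI-H1373. The share of all genes called in these refits is not reported here, so the counts do not set members apart from other genes. Without the 3 libraries that went against their labels the counts at 6 h stayed at 0 in both lines.

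In DMSO of NCI-H1373, 5 of 81 nuclear members were lower at 24 h than at 6 h and none was higher. Of all genes 9.12% were called (5.46% lower), so the share of members called lower was near that of all genes. NDUFB10 was at 383.1, 365.7 and 288.5 at 6 h and 133.6, 126.2 and 230.8 at 24 h (-1.07 ± 0.21, edgeR adjusted p = 0.00176). NDUFS3, a core subunit of complex I, was at 227.9, 251.7 and 204.8 at 6 h and 140.3, 140.0 and 152.7 at 24 h (-0.64 ± 0.15, adjusted p = 0.00795). ATP5F1D (-1.54, adjusted p = 0.00935), the iron-sulfur subunit NDUFS8 (-1.24, adjusted p = 0.0167) and UQCRC1 (-0.58, adjusted p = 0.0298) were the others, and the groups did not overlap in any of the 5.

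This comparison and the 24 h treatment response share the DMSO libraries of 24 h, and NDUFB10, ATP5F1D and UQCRC1 are members of both sets. Treated NCI-H1373 libraries held 261.1 to 420.6 NDUFB10 CPM at 6 h (median 317.7) and 147.9 to 337.8 at 24 h (median 290.9). The 24 h DMSO libraries were the lowest group, with RBN012337 100 nM at 24 h next. Ribosomal protein genes were lower in 27 of 34 between the DMSO times, import and cristae genes in 11 of 25 and assembly factors in 5 of 53 (5.46% of all genes). CYC1 was lower as well (log2 difference -1.13, edgeR adjusted p = 0.0129). NEAT1, a nuclear-retained RNA, was higher (1.35). Their part in the result was not tested. Leaving out 1 DMSO library gave 1 to 18 called nuclear members, 1 without 24 h replicate 1, 2 without 6 h replicate 1, 3 without replicate 2 of either time, 18 without 24 h replicate 3 and 8 without 6 h replicate 3. With only these 2 groups in the model 0 were called. Shares of all genes in these refits are not reported here.

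In NCI-H647 no member differed between the DMSO times (0.284% of all genes called), by edgeR or DESeq2. At an unadjusted p under 0.05 there were 7 nuclear and 2 mitochondrially encoded members, and 1701 of all 14789 genes. SDHA (-0.67, edgeR adjusted p = 0.188), NDUFS8 (-0.56) and COX6B2 (-0.87) had the smallest p among nuclear members and MT-ND1 (-0.42, adjusted p = 0.371) among the mitochondrially encoded.

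The tests of differences called no member. Between the 24 h and the 6 h response, NDUFB10 came nearest in NCI-H1373 (0.86 ± 0.22, edgeR adjusted p = 0.0593), where 79 of 81 nuclear and 13 of 13 mitochondrially encoded members had a positive difference and 0.53% of all genes were called. In NCI-H647 74 of 82 nuclear members had a positive difference, COX6B2 had the smallest p (1.43, adjusted p = 0.562), and 0.0% of all genes were called. The median of all genes was 0.006 in NCI-H1373 and -0.0004 in NCI-H647. DMSO replicate 2 had the highest nuclear score of DMSO at 6 h (8.494 and 8.644) and the lowest at 24 h (7.376 and 7.512). All members share these libraries, so the counts of positive differences are not independent observations. The part of these libraries was not tested. At an unadjusted p under 0.05 the comparisons between times held 14 and 1 nuclear and 2 and 0 mitochondrially encoded members, and DESeq2 called 1 in NCI-H1373. Over all genes they held 1783 of 12832 and 894 of 14789 at that p. Between the lines at 24 h, NDUFA10 (0.66 ± 0.20, adjusted p = 0.124), COX6B2 (-1.89, adjusted p = 0.272) and MT-ND2 (-0.29, adjusted p = 0.654) did not pass, 6 nuclear members had an unadjusted p under 0.05 (1428 of all 16177 genes did), and 0.47% of all genes were called. Between the lines at 6 h edgeR called 0.0% of all genes, and 0 members had an unadjusted p under 0.05 (594 of all 16177 genes did). DESeq2 called no member between the lines at either time. The rises in NCI-H1373 at 24 h are therefore not shown to differ from NCI-H647.

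RBN-2397 and RBN012337 were compared at 10 nM, the dose they share, in 4 pairs of line and time. By edgeR no member and no other gene was called (0.0% of all genes), with p-values adjusted over all genes of a pair. DESeq2 called no member either, and 0 nuclear and 0 mitochondrially encoded members had an unadjusted edgeR p under 0.05 in any of the pairs. Over all genes 153 and 250 of 12832 (NCI-H1373, 6 and 24 h) and 363 and 456 of 14789 (NCI-H647, 6 and 24 h) did. Log2 differences of nuclear members ran at 24 h from -0.42 to 0.76 (NCI-H1373) and -0.30 to 0.50 (NCI-H647), and from -0.38 to 0.27 and from -0.43 to 0.19 at 6 h. The 95% interval lay within 1 on the log2 scale, in either direction, for 76 of 81 and 79 of 82 nuclear members at 24 h, 78 of 81 and 80 of 82 at 6 h, and 12 or 13 of the 13 mitochondrially encoded members. It reached 0.466 to 0.476 to either side of a nuclear member's difference (median), so differences below that size were not resolved.

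No single dose called a member at 6 h by edgeR in either line, with 0.312%, 0.0234% and 1.61% of all genes called in NCI-H1373 for RBN-2397 at 10, 30 and 300 nM, 0.468%, 0.195% and 0.0% for RBN012337 at 3, 10 and 100 nM, and at most 0.00676% in NCI-H647. At an unadjusted p under 0.05 these doses held 1 to 34 nuclear members in NCI-H1373 and 2 to 36 in NCI-H647, with 0 or 1 mitochondrially encoded members, and DESeq2 called 1 member, with RBN-2397 300 nM in NCI-H647. Over all genes the doses held 329 to 2095 of 12832 in NCI-H1373 and 364 to 1827 of 14789 in NCI-H647 at that unadjusted p.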

How the data were processed

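Total RNA was made into 84 paired-end libraries that count message 3' ends, per the labels' protocols. The authors deposited estimated counts for single libraries without normalization, made with Salmon on hg38 per the submitters' processing notes. The sources used here do not give the annotation or how molecular identifiers and strand were treated. Of the nonzero values 49.4% were not whole (tolerance 0.0005), and values were rounded. Identifiers were matched to GENCODE 29 for 57845 of 57964 genes.

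Each line was fitted with its 42 libraries in 14 groups (12832 genes in NCI-H1373, 14789 in NCI-H647), and comparisons between lines used all 84 libraries (16177 genes), with edgeR 4.0.16 in R 4.3.3: filterByExpr, TMM scaling and robust quasi-likelihood F tests, adjusted by Benjamini-Hochberg within a contrast. Errors beside log2 values are standard errors. Levels are CPM (counts scaled to a common library total) on the TMM scale of all libraries, and scores average log2 CPM with a prior count of 2. The fit was checked on simulated data. Promoters come from RefSeq on GRCh38.p14 and 4 members were matched there by a newer symbol.

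Members and gene lists were chosen with earlier results of these data known. Genes named are up to 2 called members per complex and direction in the mean, DMSO and line comparisons, or the 3 of smallest p in each genome where none was called, up to 2 each way in single treatments, up to 3 each way in other lists, and fixed subunit pairs and regulators. Of the called members 1 is counted but its values are not reported here. Alternatives were DESeq2 1.42.0, upper-quartile scaling, scaling without mitochondrially encoded genes, no filter, only the groups compared, the replicate number as a block, and leaving out each replicate. After seeing the data 2 more were chosen, adding nuclear copies to mitochondrial genes and leaving out the 3 libraries that went against their labels.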

Additional observations from a re-analysis of the deposited data

How the results depend on the processing

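Of 736 recounts for 52 counts of called members, 632 stayed within 1.5 times the reported count and 104 did not. Shares of all genes called are given for the main fit only. Counts from refits, here and above, therefore do not set members apart from other genes. Of 1232 recomputed values for 88 calls, each of 1 member in 1 line, mean or DMSO-time comparison, none changed direction and 248 lost the call. All 108 recomputed scores moved by less than the spread between replicates, which was wide among DMSO libraries. The 6 h difference in nuclear score stayed within that spread although it lost most of its size without DMSO replicate 2 in both lines. The scores are therefore not shown to be stable. Scaling without mitochondrially encoded genes and adding nuclear copies changed no count by over 1.5 times. NCI-H1373 was the shallower line and had fewer genes past the filter (12832 against 14789). Whether depth limits the calls and the causes of the changes below were not tested.

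The numbers do not pair the samples by the labels. Same-numbered libraries of a line and time had deviations correlated over 0.1 in 58, 47, 41 and 41 of 63 pairs (NCI-H1373 6 and 24 h, NCI-H647 6 and 24 h), and 83 of 84 libraries correlated best with their own number, a hint from the data only. With the replicate number as a block, NCI-H1373 nuclear calls in the mean response went from 0 to 10 at 6 h and from 6 to 14 at 24 h, those of DMSO over time from 5 to 10 and of the difference between times from 0 to 2. Single doses with the block gave 6, 8 and 6 (RBN-2397 10 and 300 nM, RBN012337 3 nM) at 6 h. At 24 h they gave 9 and 15 (RBN-2397 10 and 300 nM) and 10 and 6 (RBN012337 3 and 10 nM). In NCI-H647 at 24 h the block gave 6 nuclear and 1 mitochondrially encoded calls in the mean response, and 2, 1 and 4 with RBN-2397 10, 30 and 300 nM and 1 with RBN012337 3 nM. The difference between lines at 24 h went from 0 to 1.

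With only the groups compared in the model, nuclear calls between the lines in DMSO were 7 at 6 h and 2 at 24 h. In NCI-H1373 that setting gave 2 in the 24 h mean response, 0 between DMSO times, 0 with each RBN-2397 dose and 1 with RBN012337 3 nM. DESeq2 gave 1 (NCI-H1373) and 2 (NCI-H647) in the 6 h mean response, 1 and 2 with 10 nM RBN-2397 and RBN012337 in NCI-H1373 at 24 h, 1 in the difference between its times, and 1 and 2 with RBN-2397 300 nM in NCI-H647 at 6 and 24 h. Without a filter the 6 h mean response had 1 (NCI-H1373) and 6 (NCI-H647). In NCI-H1373 at 24 h RBN-2397 had 1 at 30 nM and 4 at 300 nM, and RBN012337 3 at 3 nM and 1 at 10 nM. In NCI-H647 RBN-2397 had 2 at 300 nM (6 h) and 1 at 10 nM (24 h). Upper-quartile scaling gave 1 with RBN-2397 10 nM and 3 with RBN012337 3 nM in NCI-H1373 at 24 h. Without the 3 libraries that went against their labels, 1 member was called with RBN012337 10 nM in NCI-H1373 at 24 h. In NCI-H647 at 24 h that setting gave 5 nuclear and 1 mitochondrially encoded calls in the mean response and 1 each with RBN-2397 10 nM, RBN-2397 300 nM and RBN012337 3 nM.

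Leaving out 1 replicate at a time gave these ranges. Between the lines in DMSO 7 to 11 mitochondrially encoded members were called at 6 h and 18 to 32 nuclear members at 24 h. Nuclear calls in the mean response were 0 to 6 and 0 to 9 in NCI-H1373 and 0 to 27 and 0 to 6 in NCI-H647 at 6 and 24 h, with 0 to 1 mitochondrially encoded in NCI-H647 at 6 h. Between DMSO times they were 1 to 18 in NCI-H1373 (0 to 1 mitochondrially encoded) and 0 to 1 in NCI-H647. The difference between times had 0 to 3 in NCI-H1373 and that between lines 0 to 1 at 24 h. In NCI-H1373 RBN-2397 had 0 to 1 (10 nM) and 0 to 4 (300 nM) at 6 h and 0 to 3, 0 to 2 and 1 to 7 (10, 30, 300 nM) at 24 h, and RBN012337 0 to 2 (3 nM, 6 h), 0 to 5 (3 nM, 24 h) and 0 to 2 (10 nM, 24 h). In NCI-H647 RBN-2397 had 0 to 11 (10 nM) and 0 to 9 (300 nM) at 6 h and 0 to 3, 0 to 1 and 0 to 3 at 24 h, and RBN012337 0 to 2 (3 nM, 24 h).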
